A study of Mus musculus with 6 samples.

Results

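The genes described here encode guidance cues for axons and migrating neurons and their receptors, in cells of the mouse Atoh1 lineage. They are the Eph receptors with their ephrin ligands, the Slits with their Robo receptors, the netrins with their receptors Dcc, Neo1 and Unc5, the netrin relatives Ntng1 and Ntng2, and Draxin, an unrelated secreted protein that binds Dcc. Members were taken by gene symbol from the array annotation: every probe set whose single gene symbol belonged to these families was kept. This gave 86 of 45037 probe sets, which covered 41 of 18193 genes. There were 16 ligand genes, 23 receptor genes and 2 netrin-G genes. The EphB receptor gene Ephb2 is missing here, because no probe set had it as its single gene symbol.

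All samples were EGFP-positive cells sorted at E14.5 from the dissected rhombomere 1 and isthmus (r1/isthmus) of Swiss Webster embryos that carried Atoh1-CreER and the RCE EGFP reporter. In these embryos tamoxifen, given by gavage to the pregnant dam at 4 mg per 35 g, lets Cre act in cells that express Atoh1 near the time of the dose. Dams of the early group were dosed at E10.5, those of the late group at E13.5. Each group held 3 samples on Affymetrix 430_2 arrays. The labels name both groups by the time of Atoh1 expression, so the day of labelling and the interval from labelling to sorting (longer in the early group) changed together and cannot be told apart. The labels do not say how many embryos or litters went into a sample, so each p-value reflects the scatter of these 3 and 3 samples alone, and that scatter may be technical. RNA of a whole sorted population was hybridised, so more cells that express a gene and more RNA per cell cannot be told apart.

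Ephrins are membrane-bound ligands. Ephrin-A proteins are held by a lipid anchor and ephrin-B proteins span the membrane, and they bind EphA and EphB receptor tyrosine kinases on neighbouring cells, usually with repulsion as the outcome. Slits are secreted repellents read by Robo receptors. Netrin-1 is a secreted cue that attracts through Dcc and repels where Unc5 receptors take part. Rhombic lip derivatives are a textbook setting for these cues: precerebellar neurons migrate ventrally under the control of netrin, Dcc and Slit-Robo signals, and loss of Unc5c lets cerebellar cells stray beyond the rostral border of the cerebellum.

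The arrays themselves differed in ways that bear on every value given here. Pairs of late arrays had Spearman correlations of 0.938 to 0.945, pairs of early arrays 0.874 to 0.893, so the early arrays were the more variable. RNA quality, read as the 3′ over 5′ signal ratio of Actb, did not overlap between the groups, at 17.4 to 26.2 in early and 12.9 to 16.1 in late arrays, whereas the same ratio of Gapdh overlapped, at 10.6 to 13.2 and 9.47 to 12.1. Xist, expressed from the inactive X chromosome, read 166 units in early replicate 3 and at least 8141 units in the other 5 arrays, and Eif2s3y, a Y-linked gene, read 14.1 units in late replicate 3 and at least 826 units in the others. Results are therefore also given without these 2 arrays. The summed signal of 7 cell cycle genes (Mki67, Top2a and others) was 4452 to 5616 units in early and 39367 to 41067 units in late arrays. That of 8 postmitotic neuron genes was 67339 to 70956 units in early and 34969 to 39956 units in late arrays. Of these 8, 4 passed toward early (Tubb3, Map2, Stmn2 and Nefl) and 4 did not pass. Map2 was the brightest, at 25334 to 28649 units in early and 12165 to 12465 units in late arrays. Snap25 and Nefm were brighter in early arrays without passing (limma adjusted p = 0.0849 and 0.0827), and Syt1 was level. Rbfox3 was 1.63-fold brighter in late arrays without passing (limma adjusted p = 0.0608). All 8 tested genes of the granule cell and rhombic lip lineage lay above the median in every array. Of these, 5 were higher in late cells, among them Atoh1 (397 to 936 units in early and 6819 to 9733 units in late arrays), and 2 in early cells, Meis2 (11.9-fold) and Slc17a6 (3.64-fold). Of 8 endothelial markers, 3 lay at or below the array median in all arrays, Pecam1 among them, and the summed signal overlapped between early (482 to 2682 units) and late (369.5 to 1595 units) arrays. Of 8 mural cell and fibroblast markers 2 were that dim, and their sums ran from 890.2 to 2690.0 units in early and from 371 to 1238 units in late arrays. The GABAergic list was brighter in early (2281 to 3626 units) than in late arrays (876 to 1254 units). Calb1, its brightest gene in early arrays, passed toward early with Gad1 and Gad2. Lhx1 was 2.05-fold brighter in late arrays without passing (limma adjusted p = 0.243). The oligodendrocyte precursor list was also brighter in early arrays (2708 to 3143 against 864 to 1109.9 units). Olig1, which makes up most of its early sum (1814 to 2351 units), and Olig2 passed toward early. Pdgfra passed toward late, and Sox10 was level. The lists of microglia and blood (457 to 1349.6 against 266 to 389 units), monoaminergic and motor neurons (382 to 604 against 316 to 459 units) and neural crest (516 to 763 against 159 to 541 units) were dim, with 3 of 7, 3 of 6 and 1 of 3 genes at or below the median in every array. Csf1r, the only tested gene of the microglia and blood list, passed toward early (254 to 740 against 104 to 156 units, 3.47-fold, limma adjusted p = 0.0267). No tested gene of the monoaminergic and motor neuron list or the neural crest list passed. The 8 radial glia and astrocyte genes split: Vim, which makes up most of their sum (20604 to 22517 units in early and 28573 to 34850 units in late arrays), and Slc1a3 passed toward late, at 2.12-fold and 1.89-fold, and Fabp7 and Aldh1l1 toward early, at 1.85-fold and 2.98-fold. The part of RNA quality, cell cycle state and these other cell types in the results was not tested.

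Signal is given in the units of the deposited values, in which each array has a trimmed mean of 500. Values were compared on the log2 scale, early minus late, with limma over all probe sets brighter than the median of their array in at least 3 of 6 arrays. A gene was read from its brightest probe set. Of the 41 genes, 33 were tested and 8 (Epha1, Epha2, Ephb4, Efna1, Ntn3, Ntn5, Robo4 and Slit3) were too dim. Of the 33, 7 were higher in early cells (Epha4, Epha8, Ephb1, Ephb6, Efnb3, Robo1 and Unc5d) and 8 in late cells (Epha3, Dcc, Unc5a, Unc5c, Robo2, Draxin, Ntn1 and Efna4) at a Benjamini-Hochberg adjusted p of 0.05. Thus 45.5% of the tested members passed, beside 30.1% of all tested genes (16.2% toward early and 13.9% toward late). On the level of probe sets, 61 of 86 were tested. Of these 11 were higher in early and 18 in late cells, beside 25.9% of all tested probe sets (13.4% toward early and 12.5% toward late). The groups did not overlap in 21 of the 33 genes, beside 52.4% of all tested genes. The brightest probe sets of 3 genes (Efna4, Epha8 and Ephb6) passed the brightness filter through arrays of 1 group alone, as did Draxin 1432152_at, Epha3 1425574_at and Ntng1 1449286_at. These had to differ to be tested.

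In the main fit receptors passed more often than ligands. Of 19 tested receptor genes 6 were higher in early and 5 in late cells (57.9% in all). Of 12 tested ligand genes 1 was higher in early and 3 in late cells (33.3% in all). Among all tested genes 30.1% passed (16.2% toward early and 13.9% toward late), so the ligand share lay near that of all genes. The median log2 difference was 0.07 for receptors and -0.11 for ligands, beside -0.03 over all tested genes, so both medians were close to 0. The median size of the difference, whatever its sign, was 1.19 for receptors, 0.73 for ligands and 0.57 for all tested genes. The contrast depended on the fit. With the replicate number added to the fit, 6 of 19 receptors and 4 of 12 ligands passed. With a brightness filter at the 70th percentile, 8 of 13 receptors and 6 of 11 ligands passed. Ligands against receptors is a description, and the difference between the classes was not tested.

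**Figure D1:**
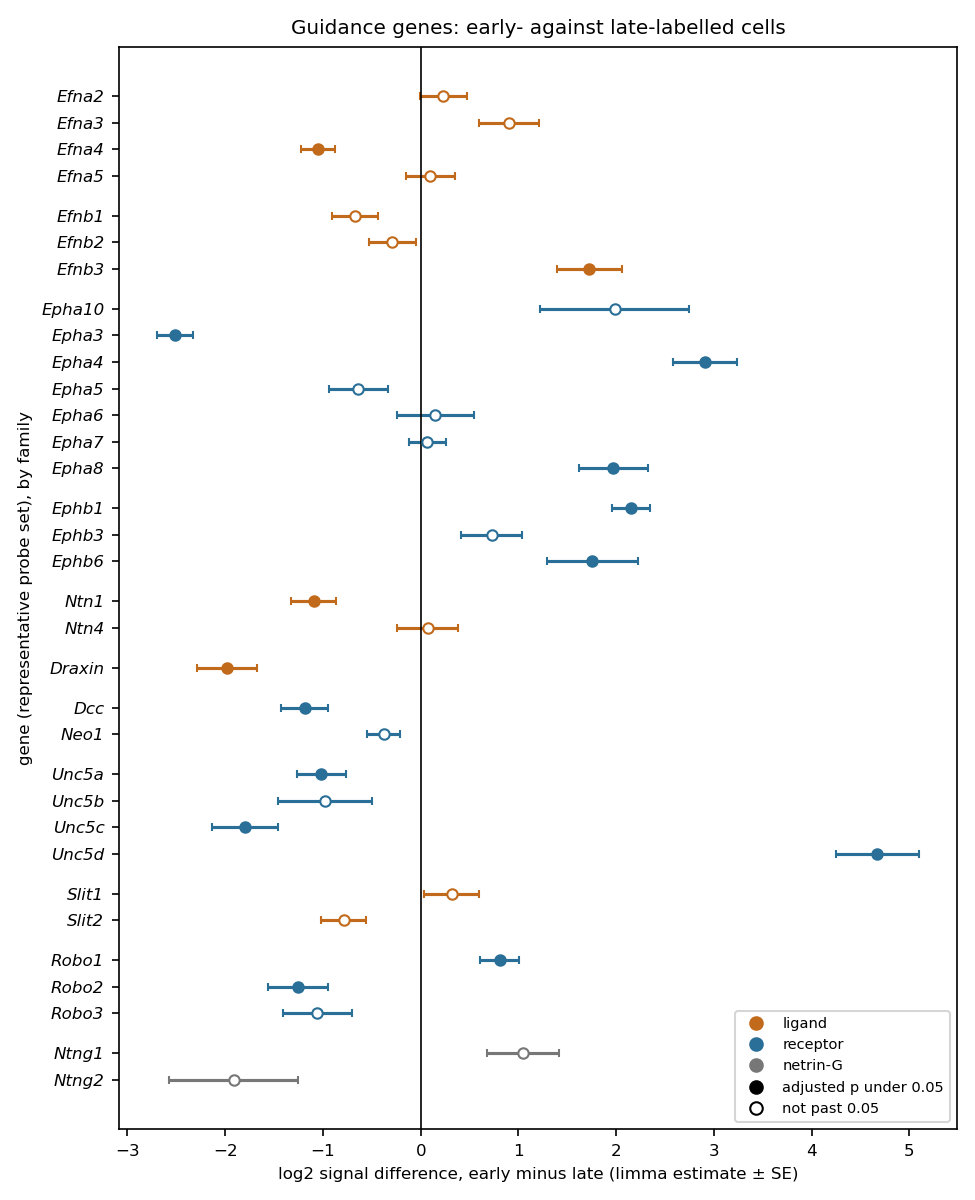
The log2 signal difference, early minus late, with limma's standard error for the 33 tested genes, grouped by family. Filled points passed an adjusted p of 0.05. Unc5d stands at 4.67 and Epha4 at 2.91 on the early side, and Epha3 at -2.51 and Draxin at -1.98 on the late side.

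The EphA receptors split. Epha3 and Epha5 encode receptors for ephrin-A ligands, and Epha4 encodes a receptor that binds ligands of both classes. Epha3 read 1087, 1002 and 1291 units in early and 6629.7, 5991 and 6609 units in late arrays. All late arrays lay well above all early ones, at 6410.1 ± 363 against 1127 ± 149 units (SD, n = 3), which is a difference of -2.51 ± 0.18 (SE) or 5.72-fold (limma adjusted p = 0.00117). Epha4 went the other way. It read 1774, 1886 and 1757 units in early and 169, 386 and 214 units in late arrays, with no overlap. The difference was 2.91 ± 0.32, or 7.5-fold (limma adjusted p = 0.00265).

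The other probe sets of these 2 genes bore on the same question. For Epha3, the probe set 1425575_at was also higher in late cells (4.61-fold, limma adjusted p = 0.01). So was 1425574_at (11.2-fold, limma adjusted p = 0.0285), with early signals of 6.53 to 72.0 units, below the median. It was tested only through its late arrays, so its pass adds no agreement. Its fold was 1.93 once every signal under the median had been set to the median. For Epha4, the probe sets 1439757_s_at and 1421929_at were higher in early cells by 3.39 and 2.23 on the log2 scale (limma adjusted p = 0.00887 and 0.0156). Another, 1421928_at, read 86.2 to 121 units in early and 36.2 to 149.6 units in late arrays and did not pass (limma adjusted p = 0.353).

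Epha5 was taken up after its values had been seen, because its probe sets gave different answers. Its brightest, 1437920_at, read 4267, 2859 and 2689 units in early and 3918, 4596 and 6856 units in late arrays, which overlapped (limma adjusted p = 0.169). The next, 1435286_at, read 1505, 1629 and 1355 units in early and 5099, 4614 and 5472 units in late arrays. It was 3.38-fold higher in late cells (limma adjusted p = 0.00211), as was 1420557_at at 3.87-fold (limma adjusted p = 0.00569). The 2 Epha5 probe sets that passed were thus dimmer than the one that did not, and 1444690_at (540.0 to 852 against 550.2 to 1543 units) also missed the threshold (limma adjusted p = 0.51).

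Epha8, another ephrin-A receptor, was dim. It read 120.4, 159 and 269 units in early arrays and 50.5, 50.8 and 33.5 units in late arrays. Late signals were all under the median, and the fitted 3.92-fold (limma adjusted p = 0.011) became 1.68-fold once signals were raised to it. Epha7, a receptor with 4 tested probe sets, gave no call. Its brightest read 1442, 1405 and 1809.8 units in early and 1353, 1511 and 1555 units in late arrays, a difference of 0.07 ± 0.19. Its other probe sets had differences of 0.57 to 1.22 (limma adjusted p = 0.0776 to 0.109). Epha10, whose product lacks kinase activity, read 182 to 209 units in early and 15.9 to 148 units in late arrays (limma adjusted p = 0.106), and Epha6 read 57.0 to 154 and 80.5 to 106 units (limma adjusted p = 0.808).

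Of the 3 tested EphB receptors, Ephb1 and Ephb6 passed toward early cells, beside 16.2% of all tested genes. Ephb6 was tested only through its early arrays, so it had to differ to be tested. Ephb1, which binds ephrin-B ligands, read 3186, 3395 and 2855 units in early and 675, 842 and 621 units in late arrays. The groups lay far apart, at 3145 ± 272 against 713 ± 115 units (SD, n = 3), 4.44-fold (limma adjusted p = 0.00176). Ephb6, whose product has no kinase activity, read 369, 107 and 288 units in early and 60.7, 68.5 and 70.9 units in late arrays. Its late signals were below the array median and early replicate 2 stood close to them (3.38-fold, or 2.19-fold with signals raised to the median; limma adjusted p = 0.0384). Ephb3 had overlapping arrays, 456 to 647 against 260.5 to 498 units (limma adjusted p = 0.143).

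Ephrins differed less. Efnb3, the transmembrane ephrin-B3 known as a midline barrier for EphA4-bearing axons in the spinal cord, read 1553, 1153 and 993 units in early and 289, 572 and 298 units in late arrays. It was 3.31-fold higher in early cells (limma adjusted p = 0.0146), the same direction as Epha4 and Ephb1. Efnb1 gave different answers by probe set. Its brightest probe set read 321 to 513 units in early and 659 to 726 units in late arrays without passing (limma adjusted p = 0.081), and 1418285_at, at 183 to 265 against 336 to 418 units, did pass (limma adjusted p = 0.0461, 1.70-fold). The third, 1451591_a_at, was level, at 162 to 221 against 180.0 to 212 units (limma adjusted p = 0.876). Efnb2 read 1264 to 1884 units in early and 1634 to 2255 units in late arrays and did not pass (limma adjusted p = 0.414).

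Of the lipid-anchored ephrin-A ligands, 1 of 4 tested passed (25%), near the 30.1% of all tested genes. Efna4 read 58.3, 63.1 and 51.0 units in early and 122, 122 and 111 units in late arrays, all close to the array medians of 97.5 to 111 units (2.07-fold, limma adjusted p = 0.00872). With signals raised to the median the fold was 1.11. Efna3 had 2 probe sets that missed the threshold, with early over late ratios of 1.87 and 1.47 (limma adjusted p = 0.0787 and 0.0509). Efna5, which guides EphA-bearing axons in many brain maps, read 1038 to 1819 units in early and 1250.3 to 1418 units in late arrays (limma adjusted p = 0.801). Efna2 read 689.5 to 859.6 units in early and 559 to 880.2 units in late arrays (limma adjusted p = 0.511). Efna1, Efna3 and Efna4 are neighbours on the mouse genome with no other protein-coding gene between them (RefSeq annotation of GRCm38.p6), of which Efna4 passed, Efna3 did not, and Efna1 was too dim to test.

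**Figure D2:**
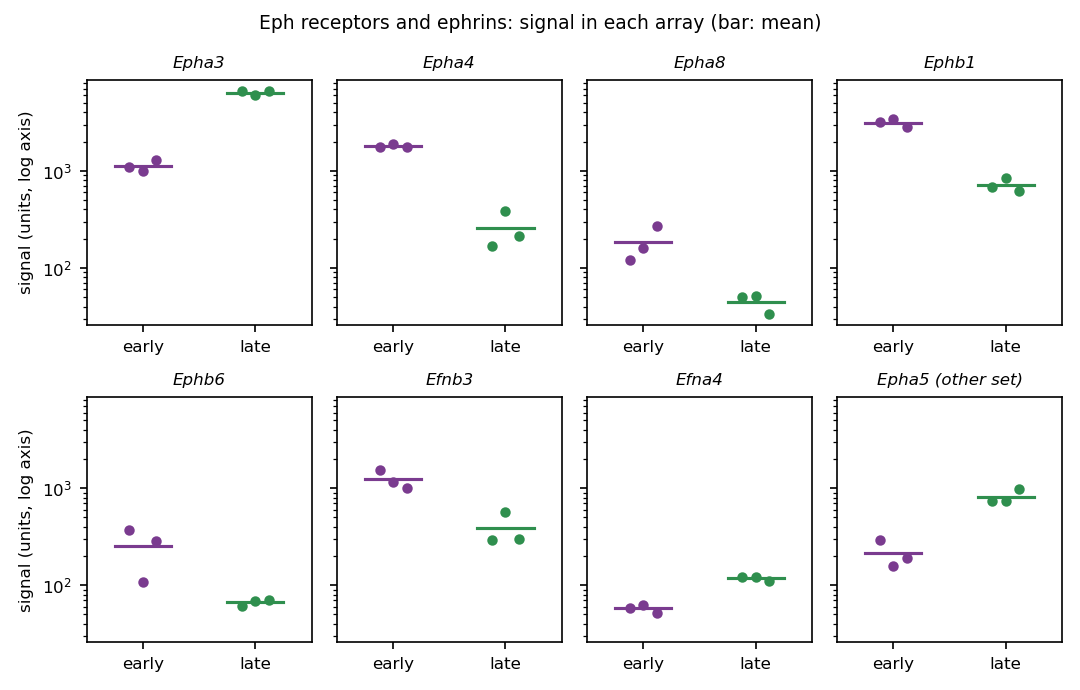
Signal of each array on a log axis for 8 Eph and ephrin probe sets, with the mean of each group as a bar. Epha3 and Epha5 (the probe set 1420557_at) are brighter in all late arrays, while Epha4, Ephb1 and Efnb3 are brighter in all early arrays. Epha8, Ephb6 and Efna4 have 1 group near background.

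Leaving out 1 array, which also leaves the test with less data, ended the calls of Efnb3, Ephb6, Efnb1 and 2 further probe sets of this system. Without late replicate 1 or 3 Efnb3 missed the threshold (limma adjusted p = 0.0587 and 0.062), as did Epha4 1421929_at (0.0578 and 0.0644). Ephb6 missed it without early replicate 1 (limma adjusted p = 0.0779) or 3 (0.0919) and without late replicate 1 (0.118), 2 (0.105) or 3 (0.107). Efnb1 1418285_at missed it without early replicate 1 (0.0719) or 2 (0.0754) and without late replicate 1 (0.0873), 2 (0.147) or 3 (0.153), and Epha3 1425574_at without early replicate 2 (0.066) and late replicate 1 (0.0922), 2 (0.0808) or 3 (0.0898). Without early replicate 3 and late replicate 3 together, Epha3 (limma adjusted p = 0.0355), Ephb1 (0.0359) and Epha5 1435286_at (0.0435) still passed, whereas Epha4 (0.0501), Epha8 (0.0578), Efnb3 (0.0939), Efna4 (0.0833) and Ephb6 (0.2) did not. The differences of the last 5 kept their sign, at 2.84, 1.45, 1.72, -1.01 and 1.62. Among further probe sets, Epha3 1425575_at (limma adjusted p = 0.0944), Epha4 1439757_s_at (0.0692) and 1421929_at (0.0835) and Epha5 1420557_at (0.0742) missed it too.

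Of 6 tested netrin receptors, 3 were higher in late cells (Dcc, Unc5a and Unc5c) and 1, Unc5d, in early cells. Among all tested genes, 13.9% passed toward late and 16.2% toward early. Dcc, the receptor that mediates attraction to netrin-1, read 4075, 2480.3 and 3068 units in early and 6399.9, 7706 and 7423 units in late arrays. Every late array exceeded every early one (2.28-fold, limma adjusted p = 0.0158), and the probe set 1440487_at gave the same 2.28-fold (limma adjusted p = 0.0314). Unc5c read 2812, 1237 and 2411 units in early and 7742, 7065 and 6459 units in late arrays, at 2153 ± 818 against 7089 ± 642 units (SD, n = 3), 3.48-fold (limma adjusted p = 0.0125). Its other probe set, 1419592_at, gave 3.66-fold with a narrower spread (-1.87 ± 0.18, limma adjusted p = 0.00194). Unc5a, a repulsive receptor of the same family, was dimmer, at 177, 108 and 146 units in early and 286, 239 and 338 units in late arrays (2.02-fold, limma adjusted p = 0.0319). Unc5b read 146, 163 and 496 units in early arrays, where replicate 3 stood apart, and 402, 494 and 459 units in late arrays (limma adjusted p = 0.184).

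Unc5d had the largest difference of the 33 genes, and toward early cells. Its product is an Unc5-family receptor that also binds Flrt adhesion proteins and is known from migrating cortical neurons. It read 1931, 3278 and 2574 units in early and 56.3, 161 and 108 units in late arrays. All early arrays lay at 2595 ± 674 units and all late arrays near their median, at 109 ± 52.5 units (SD, n = 3). The difference was 4.67 ± 0.42, or 25.5-fold (limma adjusted p = 0.00173), and 21.2-fold with signals raised to the array median. Unc5c and Unc5d, receptors of 1 family, thus passed in opposite directions.

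Neo1, a Dcc relative that binds netrins and Rgm proteins, was taken up after its values had been seen. Its brightest probe set, 1447693_s_at, read 9775 to 11697 units in early and 13799.6 to 14929 units in late arrays, a small shift that did not pass (1.30-fold, limma adjusted p = 0.157). By contrast 1444295_at read 340.2, 400.0 and 179 units in early and 2345, 2155 and 1425 units in late arrays, 6.66-fold higher in late cells (limma adjusted p = 0.00454). The probe set 1440789_at was 3.06-fold higher there (limma adjusted p = 0.0171), and 1434931_at (limma adjusted p = 0.0637) and 1447694_x_at (0.48) missed the threshold. Thus 2 of the 5 tested probe sets of Neo1 passed, both toward late cells.

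Of the ligands of these receptors, Draxin and Ntn1 were higher in late cells. Draxin, a secreted repellent that binds Dcc, read 3598, 2173 and 1677 units in early and 8870.3, 8829 and 10203 units in late arrays. The groups stood at 2483 ± 997 and 9301 ± 782 units (SD, n = 3), 3.94-fold apart (limma adjusted p = 0.00698). A much dimmer Draxin probe set, 1432152_at, was 3.43-fold brighter in late cells (limma adjusted p = 0.0392), or 1.33-fold with signals raised to the median. It was tested only through its late arrays, so its pass adds no agreement. Ntn1, which encodes netrin-1, read 266, 171 and 252 units in early and 512, 426 and 513 units in late arrays (2.14-fold, limma adjusted p = 0.0196). Ntn4, a netrin of basement membranes, read 392 to 745 units in early and 469 to 699 units in late arrays (limma adjusted p = 0.891).

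Because Atoh1 protein binds E-box motifs, the promoters of the members (250 bases before to 50 bases after the annotated start; RefSeq, GRCm38.p6) were searched for CAGCTG and for CAGATG on both strands. The first reads the same on either strand. A promoter was found for 36 of the 41 genes, some with several starts. The motifs occurred in 10 of 41 member promoters (24.4%), beside 30.6% of 32851 promoters of the whole table, in 2 of 8 promoters of genes higher in late cells and in 0 of 5 of genes higher in early cells. The promoter of Draxin is shown because Draxin had the highest fold of the ligands and is 1 of the 2 late genes with a motif. Its single CAGCTG, in capitals, begins 132 bases before the start (minus strand, chr4:148130649-148130948). CAGCTG alone was found in 16.3% of all promoters, and a match is a description of the sequence, not of binding.
Draxin: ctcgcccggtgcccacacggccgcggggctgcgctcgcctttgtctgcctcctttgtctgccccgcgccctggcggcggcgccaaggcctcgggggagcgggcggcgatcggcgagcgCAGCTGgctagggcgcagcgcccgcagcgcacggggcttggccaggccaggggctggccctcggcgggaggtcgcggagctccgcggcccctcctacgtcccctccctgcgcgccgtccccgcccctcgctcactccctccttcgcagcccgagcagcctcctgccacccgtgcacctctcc

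**Figure D3:**
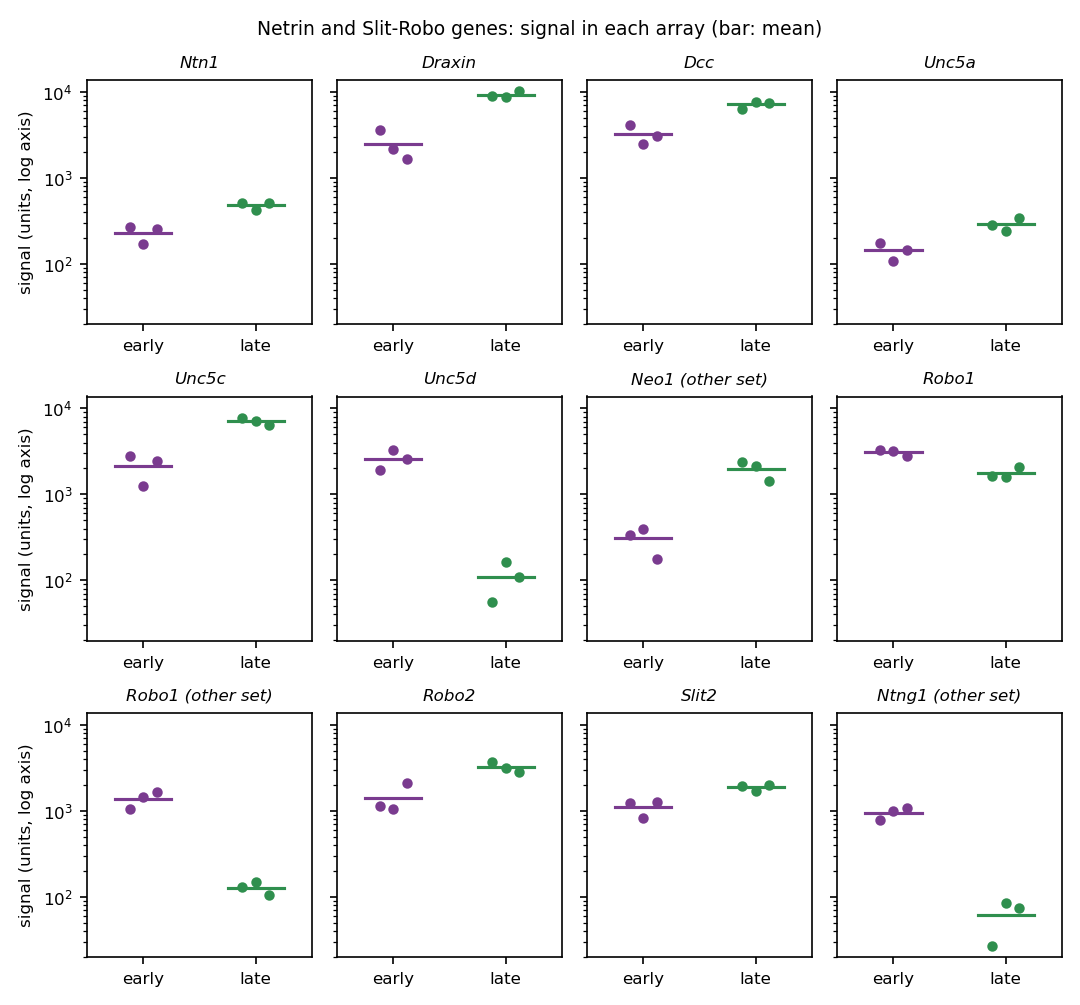
Signal of each array on a log axis for 12 netrin and Slit-Robo probe sets, with the mean of each group as a bar. Draxin, Dcc, Unc5c and Neo1 (the probe set 1444295_at) are brighter in all late arrays, and Unc5d, Robo1 and Ntng1 (1449286_at) in all early arrays.

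Robo1 and Robo2, the main Slit receptors of neurons, passed in opposite directions. Robo1 read 3242, 3192 and 2772 units in early and 1619, 1575 and 2099 units in late arrays, a modest 0.81 on the log2 scale toward early cells without overlap (limma adjusted p = 0.0297). A second Robo1 probe set, 1445549_at, read 1052, 1455 and 1641 units in early and only 129, 147 and 106 units in late arrays. That is 10.8-fold (3.43 ± 0.25, limma adjusted p = 0.00116), so the 2 probe sets shared the direction and not the size. Robo2 read 1131, 1045 and 2080.4 units in early and 3679, 3163 and 2848 units in late arrays (2.38-fold toward late cells, limma adjusted p = 0.0305). Robo3, a receptor of commissural axons, read 109 to 195 units in early and 199.8 to 416 units in late arrays (2.08-fold, limma adjusted p = 0.0725).

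Robo1 and Robo2 lie next to each other in the mouse genome, with no protein-coding gene between them. Their promoters are shown for that reason. The Robo1 promoter (plus strand, chr16:72662899-72663198) held neither motif. Of 3 annotated Robo2 starts, 1 (minus strand, chr16:74411776-74412075) held a CAGCTG, in capitals, that begins 37 bases before the start.
Robo1: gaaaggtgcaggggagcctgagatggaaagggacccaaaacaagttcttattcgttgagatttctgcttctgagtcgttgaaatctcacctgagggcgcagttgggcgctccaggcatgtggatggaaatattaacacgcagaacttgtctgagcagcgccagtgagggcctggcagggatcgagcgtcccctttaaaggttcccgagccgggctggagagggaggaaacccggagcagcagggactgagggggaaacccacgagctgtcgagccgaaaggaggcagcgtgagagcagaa
Robo2: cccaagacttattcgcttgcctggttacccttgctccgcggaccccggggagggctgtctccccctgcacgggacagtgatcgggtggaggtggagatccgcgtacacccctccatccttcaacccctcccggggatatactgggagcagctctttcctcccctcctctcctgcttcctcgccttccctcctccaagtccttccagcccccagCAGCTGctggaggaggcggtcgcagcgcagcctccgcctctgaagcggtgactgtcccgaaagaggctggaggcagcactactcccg

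The 2 tested Slit ligands missed the threshold. Slit2 read 1247, 823 and 1257 units in early and 1949.7, 1690.3 and 2023 units in late arrays, without overlap, yet narrowly missed the threshold (1.73-fold, limma adjusted p = 0.052). Its probe set 1458140_at read 182 to 405 units in early and 492 to 712 units in late arrays and missed it too (limma adjusted p = 0.0642). Slit1 read 279.9 to 521 units in early and 297 to 376 units in late arrays (limma adjusted p = 0.444).

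The netrin-G genes encode lipid-anchored netrin relatives that bind not Dcc but the Lrrc4 family of synaptic adhesion proteins. Ntng1 was taken up after its values had been seen. Its brightest probe set read 289, 664 and 658 units in early and 243, 282 and 207 units in late arrays (2.07-fold, limma adjusted p = 0.0849). The probe set 1449286_at read 782, 994 and 1086 units in early and 26.5, 83.6 and 73.3 units in late arrays. It was 17.3-fold higher in early cells (limma adjusted p = 0.00266), or 9.20-fold with the late signals raised to the array median. Ntng2 read 27.0 to 158 units in early and 149.9 to 287 units in late arrays (limma adjusted p = 0.0806).

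Most netrin and Robo calls were lost in at least 1 of the fits that left out 1 array, which also have less data. Robo1 1427231_at missed the threshold without early replicate 1 (limma adjusted p = 0.0617) or 2 (0.055) and without late replicate 1 (0.106), 2 (0.111) or 3 (0.054). Robo2 missed it without early replicate 1 (limma adjusted p = 0.0718) or 2 (0.0617) and without late replicate 1 (0.105), 2 (0.0915) or 3 (0.0814). Unc5a missed it without early replicate 2 (0.0538) or 3 (0.0607) and without late replicate 1 (0.101), 2 (0.0632) or 3 (0.119), and Unc5c without late replicate 1 (0.0538). Dcc missed it without late replicate 2 (0.0644) or 3 (0.068), Dcc 1440487_at without early replicate 2 (0.061) and late replicate 1 (0.0896), 2 (0.0973) or 3 (0.107), and Neo1 1440789_at without late replicate 2 (0.0596) or 3 (0.0706). Ntn1 missed it without late replicate 1 (0.0758), 2 (0.0524) or 3 (0.0814), and Draxin 1432152_at without early replicate 1 (0.0781) or 2 (0.0861) and without late replicate 1 (0.12), 2 (0.12) or 3 (0.0855). Without early replicate 3 and late replicate 3 together, Unc5d (limma adjusted p = 0.0385), Robo2 (0.0448), Neo1 1444295_at (0.0355), Robo1 1445549_at (0.0355) and Ntng1 1449286_at (0.0434) passed. Draxin (0.0678), Unc5c (0.0838), Robo1 1427231_at (0.0818), Ntn1 (0.119), Dcc (0.129) and Unc5a (0.18) did not. For Unc5c the probe set 1419592_at still passed (0.0402), and Dcc 1440487_at (0.154) and Neo1 1440789_at (0.14) did not.

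The probe sets of a gene could be set side by side in 17 genes with at least 2 tested probe sets. By limma, no gene of the 17 had probe sets past the threshold in both directions. All tested probe sets of Dcc, Draxin, Epha3, Robo1 and Unc5c passed in 1 direction, but Draxin 1432152_at and Epha3 1425574_at were tested only because late arrays were above the median, so their pass adds no agreement. In Epha4, Epha5, Efnb1, Neo1 and Ntng1 some passed and others did not. Counting a gene by any of its tested probe sets, 13 of 19 receptors and 5 of 12 ligands passed, beside 35.5% of all genes by that rule, the additions being Epha5, Neo1 and Efnb1, all toward late cells. Which stretch of a transcript each probe set reads was not used here, and what sets the different sizes was not tested.

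**Figure D4:**
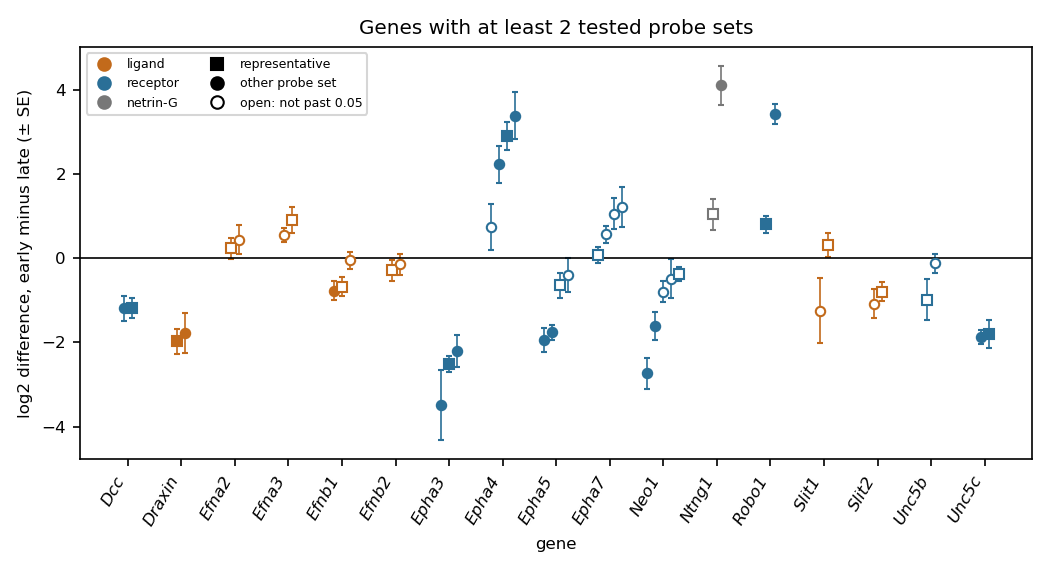
The log2 difference, early minus late, with limma's standard error for each tested probe set of the 17 genes with at least 2. Squares mark the brightest probe set and filled symbols an adjusted p under 0.05. In Robo1 the 2 values are 0.81 and 3.43, and in Neo1 they run from -2.74 to -0.38.

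Other genes of these pathways were read from 3 lists of binding partners, adaptors and cytoskeletal regulators. Of 93 listed symbols 84 were in the table and 80 were tested, of which 31 were higher in early and 5 in late cells. That is 45.0% of those tested, beside 30.1% of all tested genes, with a median difference of 0.47 beside -0.03 over all tested genes. Among 29 tested Eph and ephrin partners 7 were higher in early and 3 in late cells. That is 34.5% of this list, near the 30.1% of all tested genes (16.2% toward early and 13.9% toward late). Anks1b, an ankyrin-repeat scaffold protein, read 1139 to 1562 units in early and 247 to 337 units in late arrays (4.73-fold, limma adjusted p = 0.00195). Arhgef15, a guanine nucleotide exchange factor that Eph receptors bind, was 4.59-fold higher in early cells, or 2.13-fold with signals raised to the median, and was tested only through its early arrays, since late signals of 32.8 to 68.8 units lay under the median. Pdzrn3, a ubiquitin ligase with PDZ domains, and Grb10, an adaptor of receptor tyrosine kinases, were 4.12-fold and 3.84-fold higher in late cells.

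Among 25 tested Slit and Robo partners 11 were higher in early cells (44%, beside 30.1% of all tested genes) and 14 did not pass. Plxna1, best known as a semaphorin receptor subunit, read 976 to 1114 units in early and 258 to 293 units in late arrays (3.75-fold, limma adjusted p = 0.00164). Flrt1 and Flrt3, adhesion proteins that also bind Unc5 receptors, were 3.64-fold and 2.57-fold higher in early cells, and Sdc3, a heparan sulfate proteoglycan, 2.62-fold. Flrt3 missed the threshold without early replicate 1 (limma adjusted p = 0.0893) or 2 (0.0688) and without late replicate 1 (0.126), 2 (0.135) or 3 (0.081).

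Among 26 tested netrin partners 13 were higher in early and 2 in late cells (57.7% in all, beside 30.1% of all tested genes). Lrrc4c, which encodes the binding partner of netrin-G1, read 479, 1529 and 1141 units in early and 74.9, 73.7 and 34.4 units in late arrays. It was 16.4-fold higher in early cells (limma adjusted p = 0.00402), and 9.17-fold with signals raised to the array median. Ntng1 1449286_at gave 17.3-fold and 9.20-fold. Lrrc4c and this Ntng1 probe set were tested only through their early arrays, since all late signals lay under the median. The brightest Ntng1 probe set did not pass (2.07-fold, limma adjusted p = 0.0849). Ablim3 and Ablim1, actin-binding LIM proteins, were 11.8-fold and 7.51-fold higher in early cells. Dock1 encodes an exchange factor for Rac that acts downstream of Dcc. It read 132 to 312 units in early and 956 to 1307 units in late arrays, 5.92-fold higher in late cells (limma adjusted p = 0.00523). Without early replicate 3 and late replicate 3 together, Ablim1 (limma adjusted p = 0.0679), Ablim3 (0.0552), Arhgef15 (0.0611), Dock1 (0.0603), Flrt3 (0.0531), Lrrc4c (0.0532) and Sdc3 (0.0822) missed the threshold. When all probe sets of a gene were averaged, Arhgef15 (limma adjusted p = 0.104), Sdc3 (0.446) and Flrt3 (0.0533) missed it. Several of these partners are also general genes of neurons. Tubb3 and Map1b were called, and Gap43 was not (limma adjusted p = 0.108). The summed signals of neuron markers were higher in early arrays as given above, but Tubb3 is itself 1 of those markers.

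**Figure D5:**
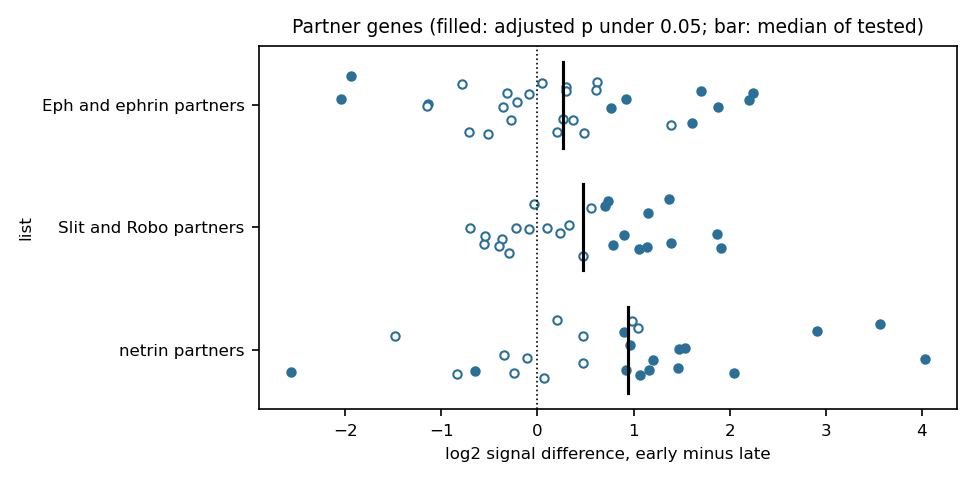
The log2 difference, early minus late, of each tested partner gene in 3 lists, with filled points past an adjusted p of 0.05 and a bar at the median. Of the called genes 31 lie on the early and 5 on the late side.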

How the data were processed

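Signal intensities were deposited by the authors as MAS5 values on a linear scale, per the submitters' processing notes, and every array has the same trimmed mean of 500 in the deposited table. Genes were named through the platform annotation: 34945 probe sets had a single gene symbol, 932 several and 9160 none, and the 64 control probe sets were left out. Log2 signals were fitted with limma 3.58.1 in R 4.3.3, all 6 arrays and no covariates, early minus late, and p-values were adjusted by Benjamini and Hochberg over all 23491 tested probe sets. Where several probe sets named only that gene, the one brightest on average (mean log2 signal) stood for it. Members were described array by array where the brightest probe set passed 0.05 with at least a 2-fold difference and groups that did not overlap, and other members more shortly. Epha5, Epha7, Unc5b, Slit2, Neo1, Ntng1 and Robo1 were also given array by array, outside that rule and after their values had been seen. From each list of partners the 4 largest differences past 0.05 were named. Tubb3, Map1b and Gap43, and probe sets other than the brightest, were named after their values had been seen. Members and lists were chosen with earlier results of these data known. Precision is limited by having 3 arrays a group. Alternatives were other scalings, filters, variance models, probe set rules, a replicate block and left-out arrays.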

Additional observations from a re-analysis of the deposited data

How the results depend on the processing

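The member probe sets past the threshold numbered 29, the ligand genes 4, the receptor genes 11 and the partner genes 36. Without a brightness filter these were 14, 1, 5 and 14, and at an adjusted p under 0.01 they were 13, 2, 4 and 17. Calls over all probe sets fell as well, from 6094 of 23491 to 2719 of 45037 without the filter and to 2433 at 0.01. Averaging all probe sets of a gene left 20 partners. Leaving out 1 array at a time gave 16 to 30 probe sets, 2 to 5 ligands, 6 to 10 receptors and 21 to 33 partners. Without early replicate 3 and late replicate 3 together there were 12 probe sets, 0 ligands, 4 receptors and 5 partners by limma; 4 ligands had an unadjusted p under 0.05, and calls over all probe sets went from 6094 to 1481. With the replicate block there were 4 ligands, 6 receptors and 21 partners, and calls over all probe sets went to 3590. Same-numbered arrays did not deviate together (correlations of -0.07 to -0.01), so the numbers were not taken as pairs. A filter at the 70th percentile gave 6 of 11 tested ligands and 8 of 13 tested receptors. No sign reversed. Among the 15 called genes, Epha3, Ephb1 and Unc5d passed under all 20 alternatives run. Signals raised to the array median ended the calls of Efna4 (limma adjusted p = 0.569), Epha8 (0.0969) and Ephb6 (0.0835), and averaging ended those of Dcc (0.064) and Ntn1 (0.227). Robo1 by its brightest probe set missed the threshold after centring each array on its median (0.0604) and with array weights (0.0611), and Efna4 (0.199) and Unc5a (0.0501) with a robust variance trend. Counting genes by any tested probe set was an alternative chosen after seeing the data. Signals near the array median limit what can be said of dim genes.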
